A study of Mus musculus with 23 samples.

Results

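CT2A and GL261 are mouse glioma lines that were started from chemically induced brain tumors and grow as transplants in immunocompetent mice. The comparison described here was between whole tumors of these lines, taken from the brain: 4 CT2A-luc tumors (samples 39, 40, 47 and 48) against 4 GL261-luc2 tumors (samples 405, 412, 414 and 417), chosen by line and tissue from the labels and making up 8 of the 23 samples of the series. Both lines carry a luciferase transgene. Per the study's methods, both were injected into the right striatum of female albino C57BL/6 mice 7 to 10 weeks old, and fewer CT2A-luc than GL261-luc2 cells were injected. No treatment is named for these tumors, and they came from 4 mice per line, by the description in the study. The p-values below measure the spread between these tumors, and each line is a single transplanted line. Line and number of injected cells therefore cannot be told apart here. The same holds for any difference in tissue handling, library preparation or sequencing that went with the line.

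A bulk brain tumor holds tumor cells together with microglia, blood-derived macrophages, lymphocytes, vessels and whatever neurons and glia were cut out with it. Transcription factors set a tumor cell's lineage, surface proteins are what neighbouring cells, antibodies and engineered T cells can reach, and extracellular matrix is the scaffold that the tumor lays down or induces in its host. Gliomas of the oligodendrocyte lineage typically express SOX10 and OLIG2, whereas mesenchymal tumors express collagens, RUNX and TEAD factors. In bulk RNA, fewer cells of a type and less RNA per cell cannot be told apart, and this holds for every gene below.

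The values are estimated reads summed per gene and given per 1000000 reads of the library (CPM) after TMM normalization, which scales libraries for differences in composition. Values per library are always listed in the order 39, 40, 47 and 48 for CT2A and 405, 412, 414 and 417 for GL261. The log2 fold change is CT2A minus GL261. It is printed with the adjusted p of edgeR's quasi-likelihood test over all 16434 of 35576 genes that passed a minimum on counts. The value after ± is an approximate standard error, the absolute log2 fold change divided by the square root of the F statistic of that test. For genes with few or no reads in a line, it is not a reliable measure of precision. A gene is called higher or lower where the adjusted p was under 0.05. Levels of different genes are compared only in TPM (transcripts in 1000000), which takes transcript length into account.

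The GL261 libraries held 34597135 to 42590802 estimated reads and the CT2A libraries 9582276 to 9846001. Among the GL261 tumors, sample 412 stood apart by its summed neuron markers (5537 CPM over 12 genes) and sample 405 by few of them (617 CPM), while CT2A ranged from 989 to 4319.5 CPM. The correlation of log2 CPM was 0.948 to 0.987 among CT2A tumors, 0.837 to 0.987 among GL261 tumors and 0.836 to 0.934 between the lines.

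Across all genes, 1881 (11.4% of those tested) were higher in CT2A and 1958 (11.9%) were lower, so 23.4% were called in either direction. The median log2 fold change over all genes was -0.05, and the lines did not overlap for 29.5% of genes. When the libraries of sorted tumor cells described at the end shared the fit, the split moved to 1607 higher and 2780 lower. Adding a score of neuron markers to the fit raised the counts to 3334 and 3081. With GL261 reads thinned to the depth of CT2A the counts were 1799 and 1802. Without GL261 412 there were 2185 higher and 2592 lower genes, and without GL261 405 there were 2236 and 1751. The number of higher genes fell to 1148 without CT2A 39, to 1236 without CT2A 40 and to 1209 without GL261 414.

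Genes were grouped into 92 lists of surface proteins, transcription factors, matrix, metabolism, growth signals, immune content and brain content. Matrix lists held the highest share of called genes: 70 of 233 tested were higher and 31 lower, 43.3% in all. Of 675 transcription factors 28.4% were called, of 231 growth-signal genes 26.0%, of 877 metabolic genes 22.5%, of 444 surface genes 19.6% and of 283 immune genes 17.3%. The share in metabolism was thus close to the 23.4% over all genes, and those in surface and immune genes were under it.

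**Figure D1:**
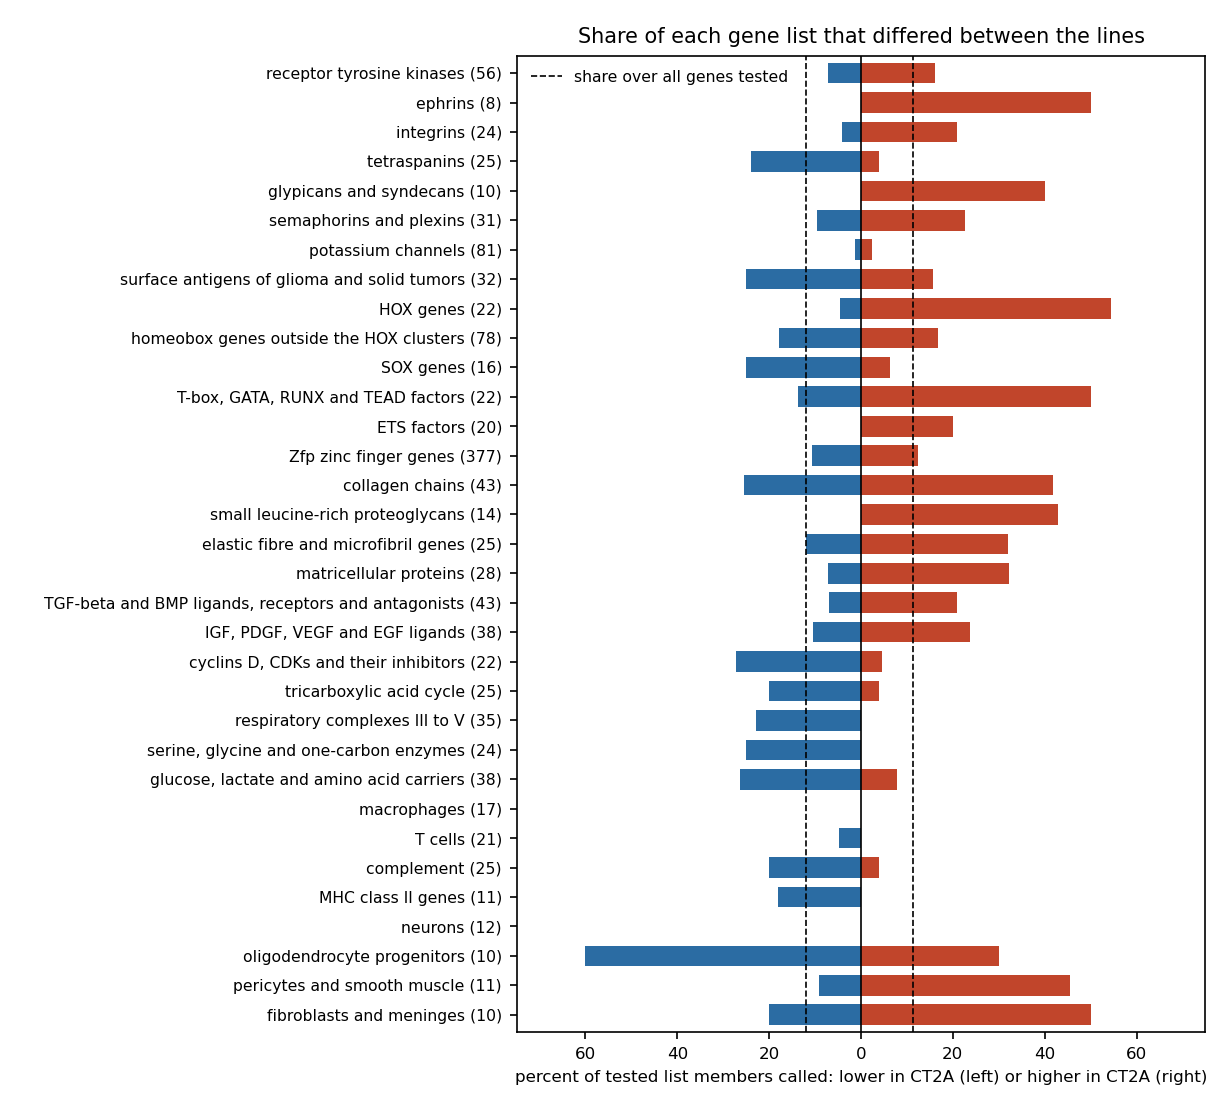
Each row is one of 33 gene lists with its number of tested members, the bars give the percent of them called lower in CT2A (left, blue) or higher in CT2A (right, red), and the dashed lines mark the 11.9% and 11.4% over all genes tested. HOX genes, ephrins, the T-box, GATA, RUNX and TEAD factors, and fibroblasts and meninges reach furthest to the right. Oligodendrocyte progenitors reach furthest to the left, and the lists of macrophages and neurons have no bar.

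The largest differences were taken among called genes whose lines did not overlap and whose mean was at least 10 CPM in one line. Of the 12 highest in CT2A, 5 were homeobox genes, among them Hoxc11 of the HOXC cluster (chr15:102954427-102957708, mm10), and the same 12 held Kap, known from kidney, and Mup22, known from liver. Of the 12 lowest, 4 lie on the X chromosome, and some are germ cell or placenta genes. Among all 16434 genes tested, the lists used here held 22 HOX and 78 other homeobox genes. The share of tested genes on the X chromosome was not counted. Tex19.1, a gene of germ cells and placenta, was at 0, 0.218, 0.0971 and 0.188 CPM in CT2A and at 36.8, 18.4, 28.9 and 35.3 CPM in GL261. The X-linked Pet2 was at 0.423, 0.436, 0.777 and 0.188 CPM against 332, 102, 205 and 233 CPM. For both genes every GL261 library was far above every CT2A library. The lists of extremes also held Gm10443, Gm28661 and Gm28439, which have near-identical copies elsewhere in the genome. Reads of such copies can be assigned to either, so their differences are uncertain, and with RSEM counts Gm28661 and Gm28439 were no longer called.

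Receptor tyrosine kinases, the surface receptors through which growth factors drive proliferation, differed in both directions: 9 of 56 were higher in CT2A and 4 lower (23.2% in all, against 23.4% over all genes), and the list's median log2 fold change was -0.09. The number of lower members was 7 without GL261 412. Fgfr1, a receptor for fibroblast growth factors and, next to Axl, the kinase of this list with the highest TPM in CT2A (175 TPM against 19 in GL261), was at 414, 473, 317 and 274 CPM in the CT2A tumors and 19.4, 76.1, 39.7 and 43 CPM in the GL261 tumors. All CT2A libraries lay above all GL261 libraries, of which the neuron-rich 412 was the highest, and the log2 fold change was 3.12 ± 0.38 (adjusted p = 0.0011). The ephrin receptor Epha2 was at 95.4, 94.7, 61.6 and 69.6 CPM against 10.2, 16.9, 17.9 and 22.1 CPM, again without overlap (2.32 ± 0.24, adjusted p = 0.000665). Ptk7, a receptor of planar cell polarity signaling, was higher as well (2.69 ± 0.28, adjusted p = 0.000696).

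In the other direction, Erbb3, the neuregulin receptor of Schwann and oligodendrocyte lineage cells, was at 4.44, 4.25, 12.7 and 7.52 CPM in CT2A and 156, 116, 189 and 247 CPM in GL261. The groups did not overlap, and the log2 fold change was -4.54 ± 0.45 (adjusted p = 0.000586). Kit, the receptor for stem cell factor, was at 14.9, 6.64, 16.4 and 16.5 CPM and 111, 100.2, 97.1 and 123 CPM, with the lowest value in CT2A 40 (-2.92 ± 0.31, adjusted p = 0.000719). Its ligand Kitl was also lower in CT2A (-1.55 ± 0.29, adjusted p = 0.0065), as was the collagen receptor Ddr1 (-1.26 ± 0.22, adjusted p = 0.00486). Axl, with the highest TPM of the list in both lines (177 TPM in CT2A and 227 TPM in GL261), overlapped between the lines, with a log2 fold change of -0.56 ± 0.26, adjusted p = 0.171.

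Ephrins, the membrane-bound ligands of EPH receptors in cell repulsion and boundary formation, were higher in CT2A in 4 of 8 genes and lower in none, the median log2 fold change being 1.13. Efna4 was at 38.9, 49, 27.5 and 23.2 CPM in CT2A and 2.45, 1.1, 2.41 and 1.66 CPM in GL261 (4.22 ± 0.36, adjusted p = 0.000333). Even the lowest CT2A library was several times above the highest GL261 library. Efnb1 (2.42 ± 0.24, adjusted p = 0.000542) and Efna5 (2.02 ± 0.33, adjusted p = 0.00376) were higher too, while Efna1 reached a log2 fold change of 1.21 ± 0.41, adjusted p = 0.0657.

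Heparan sulfate proteoglycans of the cell surface, which hold growth factors at the membrane, were higher in CT2A in 4 of 10 genes and lower in none. Syndecan 1 (Sdc1), which is also the standard marker of plasma cells, was at 223, 279.6, 152 and 131 CPM against 42.1, 8.38, 22.1 and 16.9 CPM, with no overlap (3.15 ± 0.51, adjusted p = 0.00369). Gpc1 (2.05 ± 0.19, adjusted p = 0.000402), Sdc4 (1.29 ± 0.16, adjusted p = 0.00116) and Sdc2 (0.91 ± 0.14, adjusted p = 0.0028) were higher by smaller amounts. Sdc3, the neuronal syndecan, was at 184 to 282 CPM in CT2A and 229 to 284 CPM in GL261, a log2 fold change of -0.01 ± 0.17, adjusted p = 0.985.

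Some of the adhesion molecules that differed are known from a single lineage. Cdh15, the cadherin of muscle progenitors (M-cadherin), was at 39.8, 70, 48.1 and 36.8 CPM in CT2A and 1.15, 2.42, 0.898 and 0.642 CPM in GL261 (5.30 ± 0.44, adjusted p = 0.000311). Cdh19, a cadherin of neural crest derivatives, was at 3.59, 2.61, 7.29 and 4.98 CPM and 81.2, 31.7, 83 and 54.2 CPM (-3.69 ± 0.45, adjusted p = 0.00116). These cadherins thus marked opposite lines, each without overlap. Of the 20 cadherins tested 2 were higher and 3 lower, together 25.0% against 23.4% over all genes. Chl1, a neural adhesion molecule of the L1 family, was at 39.5, 30.3, 68.1 and 60.4 CPM against 889, 432, 789 and 698 CPM (-3.76 ± 0.38, adjusted p = 0.000617), and its relative L1cam had a log2 fold change of -2.57 ± 0.38 (adjusted p = 0.00252). The protocadherins Pcdh15 (-3.17) and Pcdh17 (-2.21) were lower on the same scale, with adjusted p of 0.00489 and 0.00315.

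Integrins, the receptors for matrix, were higher in CT2A in 5 of 24 genes and lower in 1, together 25.0% against 23.4% over all genes. Among the higher ones were the fibronectin receptor chain Itga5 (104 to 176 CPM against 26.4 to 47.4 CPM, log2 fold change 1.74 ± 0.24, adjusted p = 0.00186), the laminin receptor chain Itga3 (1.89 ± 0.26, adjusted p = 0.00172) and Itgb5 (1.35 ± 0.18, adjusted p = 0.00145). The only integrin called lower, Itga4, was no longer called without CT2A 39, CT2A 48 or GL261 414, and 3 were lower without GL261 412. Itgb1, the common beta chain and the integrin with the highest TPM (392 in CT2A and 209.7 in GL261), did not pass (0.77 ± 0.33, adjusted p = 0.139). Tetraspanins, which organise such receptors in the membrane, were lower in 6 of 25 genes and higher in 1. Together that was 28.0%, against 23.4% over all genes. Tspan15, a partner of the protease ADAM10, was at 10.4 to 14.7 CPM in CT2A and 47.1 to 93.9 CPM in GL261 (-2.52 ± 0.26, adjusted p = 0.000691).

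Adhesion G protein-coupled receptors were called in both directions, 3 higher and 4 lower of 25, together 28.0% against 23.4% over all genes. Adgrg6, which Schwann cells need for myelination, was at 7.71, 8.17, 6.99 and 7.99 CPM in CT2A against 173, 48.8, 151 and 99.5 CPM in GL261 (-3.89 ± 0.41, adjusted p = 0.0007). The CT2A tumors lay close together and all below the lowest GL261 tumor, 412. Adgra2, a co-receptor for WNT7 proteins, went the other way (2.06 ± 0.21, adjusted p = 0.000556). Semaphorins and plexins, guidance ligands and their receptors, held 7 higher and 3 lower genes of 31, with Sema3a higher (1.41 ± 0.20, adjusted p = 0.00188) and Sema3e lower (-3.76 ± 0.40, adjusted p = 0.000733).

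Of 32 surface antigens that are targets in glioma or solid tumors, 5 were higher and 8 lower in CT2A. The number of higher members was 3 without CT2A 40, GL261 414 or GL261 417 and 8 without GL261 412, and that of lower members was 5 without CT2A 39. Gpnmb, a melanosome and lysosome glycoprotein targeted by antibody conjugates, was at 51.3, 83.9, 95.7 and 43.2 CPM in CT2A and 2431, 627, 1853 and 1283 CPM in GL261 (-4.46 ± 0.51, adjusted p = 0.000938). Mcam (CD146) was at 37.1, 59.8, 37.3 and 39.6 CPM against 688, 328, 738 and 937 CPM (-3.91 ± 0.36, adjusted p = 0.000405). Next to Ly6e these were the antigens with the highest TPM in GL261, at 725 and 392 TPM, and the lines overlapped for neither. Epcam, an epithelial adhesion molecule, was at 0.317, 0.436, 0.68 and 0.658 CPM against 72, 8.05, 23.8 and 13.1 CPM (-5.76 ± 0.86, adjusted p = 0.00262), and without the highest library, GL261 405, its log2 fold change was -4.73. Fap, the protease of activated fibroblasts, was the antigen that CT2A had and GL261 nearly lacked, at 24.4, 35.8, 18.5 and 27.9 CPM against 1.13, 1.08, 1.96 and 1.87 CPM (4.19 ± 0.31, adjusted p = 0.000197). Few ion channels and neurotransmitter receptors were called: 2 of 81 potassium channels were higher and 1 lower, no sodium or calcium channel of 34 passed, and 1 of 39 glutamate and GABA receptors did, against 23.4% over all genes. Without GL261 412, 2 sodium or calcium channels and 2 glutamate or GABA receptors were higher, and without GL261 405, 1 sodium or calcium channel was. The 1 lower glutamate or GABA receptor was called only with all libraries and without CT2A 48 or GL261 405.

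**Figure D2:**
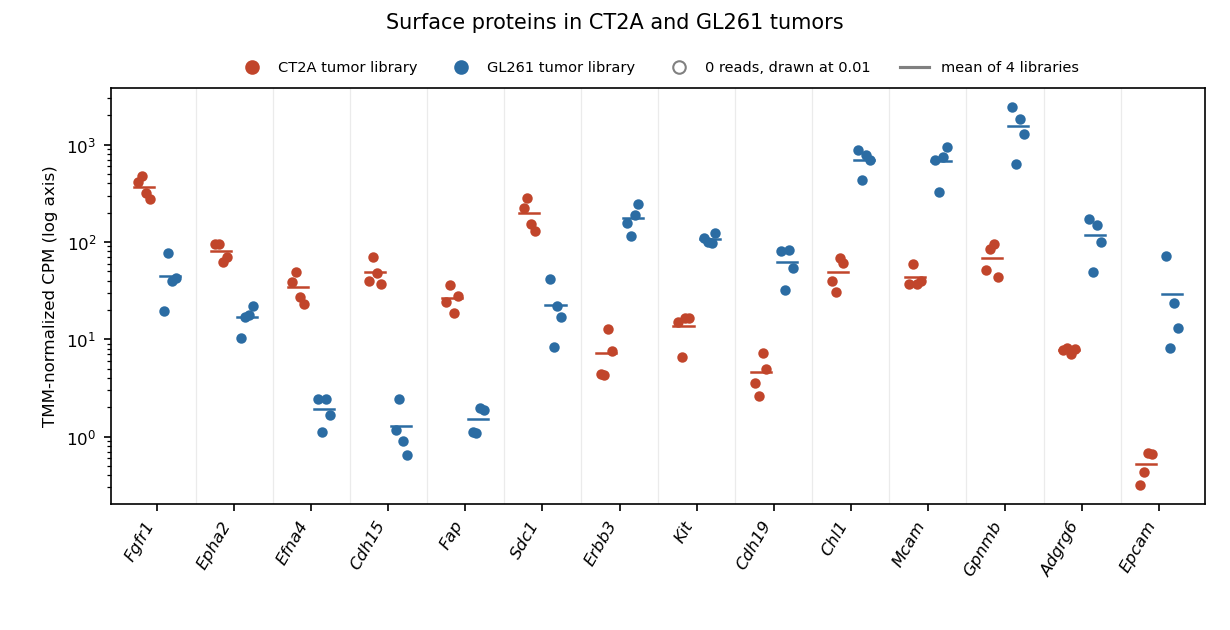
Each point is one tumor, with TMM-normalized CPM on a log axis, one column of points per line for each surface gene and a bar at the mean of 4 libraries. Fgfr1, Epha2, Efna4, Cdh15, Fap and Sdc1 sit higher in the 4 CT2A tumors, and the other 8 genes, from Erbb3 to Epcam, sit higher in the 4 GL261 tumors, with no overlap for any gene.

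Among transcription factors, HOX genes, which record position along the body axis and are silent in forebrain, were higher in CT2A in 12 of 22 tested members, and their median log2 fold change was 2.16. Hoxc11 was at 40.9, 41.7, 26.8 and 21.9 CPM in CT2A, and GL261 had 0, 0.024, 0 and 0.0583 CPM (10.37 ± 0.58, adjusted p = 0.000117). Its log2 fold change was 11.20 without GL261 417, the library with the highest of these near-zero values. The neighbouring Hoxc6 was at 14.5, 20.4, 13.1 and 16.4 CPM against 0.0275, 0, 0.0281 and 0.0875 CPM (8.72 ± 0.57, adjusted p = 0.00015; 9.47 without GL261 417). The only HOX gene called lower, Hoxd8 (-1.32 ± 0.34, adjusted p = 0.0247), lost its call in 6 of the 8 fits that left out a library, and 3 HOX genes were lower without GL261 412. Outside the HOX clusters 13 homeobox genes were higher and 14 lower of 78. The number of lower ones was 9 without CT2A 39, CT2A 40, GL261 405 or GL261 414 and 8 without GL261 417. Irx1, a patterning factor, was higher (12 to 21.7 CPM against 0.165 to 0.719 CPM, 5.42 ± 0.44, adjusted p = 0.000289). Pax5, a factor of midbrain and B cells, was lower (0.094 to 0.583 CPM against 5.61 to 11.4 CPM, -4.55 ± 0.48, adjusted p = 0.000694), and the neural factor Tlx3 had no read in CT2A and 1.75 to 4.02 CPM in GL261, at least 9.88-fold lower in CT2A when 3 reads per library are taken as the floor.

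Sox10, Sox6, Olig2 and Olig1, transcription factors known from the oligodendrocyte lineage, were lower in CT2A. Sox10 (chr15:79154908-79165240), the SOX factor of oligodendrocytes and Schwann cells, was at 14.1, 20.5, 30.4 and 22.9 CPM in CT2A and 579, 226, 468 and 527 CPM in GL261 (-4.30 ± 0.40, adjusted p = 0.000446). Sox6, a SOX factor of oligodendrocyte progenitors and cartilage, was at 8.24, 6.75, 14.7 and 13 CPM and 257, 114, 192 and 231 CPM (-4.16 ± 0.39, adjusted p = 0.000472). Even GL261 412, the lowest GL261 tumor for both genes, was well above every CT2A tumor. Olig2, the basic helix-loop-helix factor that defines the lineage, was at 7.4, 12.6, 21.5 and 17.5 CPM against 159, 95.3, 90.7 and 149.6 CPM (-3.0 ± 0.39, adjusted p = 0.00143), and Olig1 moved with it (-2.69 ± 0.33, adjusted p = 0.00116). Sox2, a factor of neural stem cells, was lower by less (-1.32 ± 0.29, adjusted p = 0.0123). Of 16 SOX genes 4 were lower and 1 higher, and the higher one was Sox9, a factor of astrocytes and cartilage, at 54.2, 67.6, 50.4 and 44.1 CPM against 9.51, 33.6, 16.5 and 18.2 CPM (1.55 ± 0.32, adjusted p = 0.0107).

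Several factors known from mesenchymal cells were higher in CT2A. The T-box, GATA, RUNX and TEAD factors had 11 of 22 members higher and 3 lower, a median log2 fold change of 0.66. Tead2, a DNA-binding partner of YAP and TAZ in the Hippo pathway, was at 233, 255, 128 and 137 CPM in CT2A and 57.2, 13.7, 48.8 and 33 CPM in GL261 (2.33 ± 0.46, adjusted p = 0.00823), and Tead1 followed (2.09 ± 0.29, adjusted p = 0.00189). Runx1, a factor of blood and mesenchyme, was at 129, 139.9, 92.2 and 78.3 CPM against 19.7, 11.1, 20 and 23 CPM (2.61 ± 0.28, adjusted p = 0.000741). Both genes were highest in CT2A 39 and 40 and did not overlap with GL261. The bone factor Runx2 (2.41 ± 0.26, adjusted p = 0.000736) and Tbx18, a factor of mural cells and meninges (3.34 ± 0.39, adjusted p = 0.000965), were higher too.

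Single members of other families were expressed at very different levels. Twist2, a factor of dermal and osteogenic mesenchyme, was at 9.72, 15.4, 9.91 and 9.02 CPM in CT2A and 0.055, 0.144, 0.281 and 0.292 CPM in GL261 (5.86 ± 0.48, adjusted p = 0.000305). Nr2f2, a nuclear receptor of venous endothelium and mesenchyme, was at 68.4, 80.3, 50.8 and 44.3 CPM against 3.0, 16.7, 5.3 and 5.25 CPM (3.09 ± 0.50, adjusted p = 0.0037). Without GL261 412, whose value stood above the other GL261 tumors, the log2 fold change of Nr2f2 was 3.79. Tbx4, a hindlimb and lung factor, was at 0.106, 0.218, 0.291 and 0.376 CPM against 19.7, 6.37, 12.9 and 15.4 CPM (-5.68 ± 0.53, adjusted p = 0.000432). Foxl2, the ovarian forkhead factor, was at 0, 0.654, 0.68 and 0.564 CPM against 25.1, 7.21, 19.8 and 15.7 CPM (-5.09 ± 0.71, adjusted p = 0.002). These last 2 were GL261 genes, without overlap. Gata4, a factor of heart and gonad, had no read in GL261 and was at 3.49, 2.83, 2.14 and 2.54 CPM in CT2A, at least 33.7-fold higher on the same floor. Bhlhe40 (1.26 ± 0.14, adjusted p = 0.000914), a stress and clock factor, and the notch target Hes1 (1.71 ± 0.24, adjusted p = 0.00215) were higher in CT2A, and the immediate-early nuclear receptor Nr4a1 was lower (-2.50 ± 0.34, adjusted p = 0.00178).

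**Figure D3:**
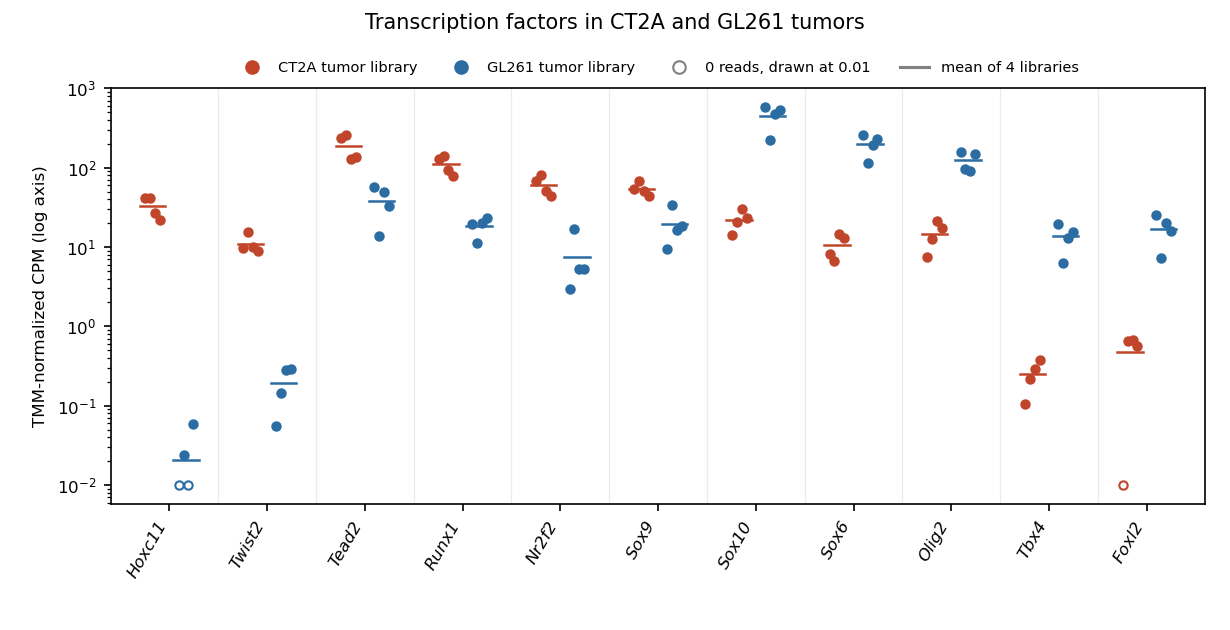
TMM-normalized CPM on a log axis for each tumor, one gene after the other, with a bar at the mean of 4 libraries and open circles for libraries with no read. Hoxc11, Twist2, Tead2, Runx1, Nr2f2 and Sox9 are higher in all 4 CT2A tumors than in any GL261 tumor, and Sox10, Sox6, Olig2, Tbx4 and Foxl2 are lower.

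TEAD and SOX factors differed between the lines, so the promoters of genes were searched for the letters they bind. A promoter here is the window from 250 bases before to 50 bases after the first listed start of a gene in RefSeq (GRCm38.p6), searched on both strands for CATTCC, the core that TEAD factors bind, and for ACAAAG, a core that SOX factors bind. CATTCC was found in 1482 of 12208 promoters of tested genes (12.1%), in 190 of 1377 of those higher in CT2A (13.8%) and in 185 of 1432 of those lower (12.9%). ACAAAG was found in 1724 (14.1%), in 207 of the higher (15.0%) and in 205 of the lower (14.3%). The shares among higher and lower genes were within 2 percentage points of that over all promoters for both motifs. The windows printed next, picked after their values were seen, belong to 2 genes higher in CT2A that hold the TEAD core, Ptk7 (chr17:46629455-46629754, minus strand) and Pdgfc (chr3:81036166-81036465, plus strand), and to 2 genes lower in CT2A that hold the SOX core, Chl1 (chr6:103510626-103510925, plus strand) and Gpnmb (chr6:49036268-49036567, plus strand). Each is written 5′ to 3′ along the gene's strand. Capitals mark CATTCC or its reverse complement GGAATG in the first 2, and ACAAAG or its reverse complement CTTTGT in the last 2. A match describes letters in the window, not a bound site.
Ptk7: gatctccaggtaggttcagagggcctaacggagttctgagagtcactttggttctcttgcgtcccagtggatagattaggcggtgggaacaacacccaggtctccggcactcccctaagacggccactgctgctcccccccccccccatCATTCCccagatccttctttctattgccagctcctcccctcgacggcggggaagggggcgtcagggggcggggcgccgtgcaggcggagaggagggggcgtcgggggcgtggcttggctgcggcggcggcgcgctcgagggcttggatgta
Pdgfc: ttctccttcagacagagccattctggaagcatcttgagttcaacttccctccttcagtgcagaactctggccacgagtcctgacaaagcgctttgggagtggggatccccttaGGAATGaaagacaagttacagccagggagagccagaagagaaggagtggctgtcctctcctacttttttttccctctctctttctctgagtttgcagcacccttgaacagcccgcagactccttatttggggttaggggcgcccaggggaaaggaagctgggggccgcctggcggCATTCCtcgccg
Chl1: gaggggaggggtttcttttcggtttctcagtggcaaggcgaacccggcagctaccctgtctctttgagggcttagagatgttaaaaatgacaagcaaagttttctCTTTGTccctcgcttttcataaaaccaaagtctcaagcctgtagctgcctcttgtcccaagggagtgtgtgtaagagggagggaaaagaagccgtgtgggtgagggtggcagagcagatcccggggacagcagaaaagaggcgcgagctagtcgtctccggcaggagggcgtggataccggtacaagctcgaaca
Gpnmb: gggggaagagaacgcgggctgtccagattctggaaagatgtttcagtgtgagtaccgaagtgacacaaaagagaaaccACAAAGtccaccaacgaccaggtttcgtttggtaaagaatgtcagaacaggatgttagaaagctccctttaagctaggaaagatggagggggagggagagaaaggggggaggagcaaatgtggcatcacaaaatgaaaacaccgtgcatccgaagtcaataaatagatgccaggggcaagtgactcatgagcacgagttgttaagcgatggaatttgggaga

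The matrix was the theme with the highest share of called genes, and its collagens split between the lines. Of 43 collagen chains 18 were higher in CT2A and 11 lower. Col5a1, the fibril-nucleating chain of interstitial collagen, was at 479.7, 476, 361 and 281 CPM in CT2A and 20.2, 18.3, 36.3 and 27.5 CPM in GL261 (4.02 ± 0.28, adjusted p = 0.000178). Col10a1, the collagen of hypertrophic cartilage, was at 20.3, 31.6, 21.5 and 20.6 CPM against 0.0275, 0.144, 0.14 and 0.175 CPM (7.59 ± 0.42, adjusted p = 0.000117), and Col8a1 of vessel walls was higher as well (3.74 ± 0.19, adjusted p = 7.61e-05). The next genes ran in the other direction. Col2a1 (chr15:97975602-98004695), the main fibril of cartilage, was at 2.85, 4.14, 2.91 and 3.67 CPM in CT2A and 594, 146, 993 and 547 CPM in GL261 (-7.34 ± 0.64, adjusted p = 0.000374). Col9a1, which coats those fibrils, was at 0.845, 0.436, 1.07 and 0.376 CPM against 147, 24.6, 121 and 102 CPM (-7.13 ± 0.70, adjusted p = 0.000548). GL261 412 was the lowest GL261 tumor for both and still stood many times above each CT2A tumor. Col9a2 (-6.39 ± 0.50, adjusted p = 0.000249) and Col11a1 (-2.79 ± 0.38, adjusted p = 0.00173), which assemble with them, were lower too.

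Most called proteoglycans and matricellular proteins were higher in CT2A. Of 14 small leucine-rich proteoglycans, which regulate fibril diameter, 6 were higher and none lower, and their median log2 fold change was 1.5. Aspn (asporin) was at 12.6 to 28.7 CPM against 0.612 to 1.27 CPM (4.52 ± 0.41, adjusted p = 0.000402). Decorin (Dcn), the best known of them, was at 16.6, 17, 73 and 27 CPM and 1.87, 22, 17 and 21 CPM and did not pass (1.22 ± 0.74, adjusted p = 0.298). Versican (Vcan), a hyaluronan-binding proteoglycan, was at 466, 618, 304 and 265 CPM in CT2A and 14, 32.3, 20.7 and 23.2 CPM in GL261 (4.25 ± 0.34, adjusted p = 0.000274). Of 28 matricellular proteins, secreted modulators of cell and matrix contact, 9 were higher and 2 lower. Ccn4, a target of WNT signaling, was at 218, 246, 127 and 122 CPM against 0.962, 0.862, 1.82 and 2.57 CPM (6.89 ± 0.47, adjusted p = 0.000163). Spp1 (osteopontin), at 854 TPM in CT2A and 121 TPM in GL261 the member with the highest TPM in CT2A, was at 537, 930.4, 627 and 415 CPM against 135, 52.7, 75.1 and 123 CPM (2.73 ± 0.38, adjusted p = 0.00202). Thbs1 (thrombospondin 1), an activator of TGF-beta, was at 492, 430.0, 302 and 243 CPM against 36.1, 24.7, 44.1 and 38.2 CPM (3.40 ± 0.28, adjusted p = 0.000305). The lines did not overlap for Aspn, Vcan, Ccn4, Spp1 or Thbs1. Smoc1 (-3.43 ± 0.35, adjusted p = 0.000602) and Matn2 (-2.15 ± 0.29, adjusted p = 0.00177) were the 2 lower members, while Sparc (756 to 1029.6 CPM against 636 to 839 CPM) and fibronectin (Fn1, 868 to 1694 CPM against 622 to 2099 CPM) did not pass.

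Of 15 genes of laminin chains and other basement membrane proteins 5 were higher and 1 lower. The higher ones included Lamb1 (2.23 ± 0.33, adjusted p = 0.00239), nidogen 1 (2.12 ± 0.25, adjusted p = 0.000965) and agrin (1.07 ± 0.20, adjusted p = 0.00724). Elastic fibre and microfibril genes had 8 of 25 higher and 3 lower, and 5 were lower without GL261 412. Fibrillin 1 (Fbn1) was higher (207 to 310.2 CPM against 29.3 to 65.7 CPM, 2.57 ± 0.27, adjusted p = 0.000719), as was Mfap4 (4.52 ± 0.49, adjusted p = 0.000787). Enzymes that cut or process matrix also differed. Of 21 matrix metalloproteinases and inhibitors 5 were higher and 2 lower, with Mmp14 (2.17 ± 0.25, adjusted p = 0.000951) and Mmp11 (2.82 ± 0.47, adjusted p = 0.00395) higher and Mmp15 lower (-2.50 ± 0.31, adjusted p = 0.00118). Among 23 ADAMTS proteases 6 were higher and 3 lower (3 were higher without CT2A 39), led by Adamts7 (3.54 ± 0.36, adjusted p = 0.000635), with Adamts1 lower (-2.46 ± 0.27, adjusted p = 0.000813). Collagen-modifying enzymes had 6 of 30 higher and 5 lower (8 lower without GL261 412). The procollagen proteinase Bmp1 (1.4 ± 0.20, adjusted p = 0.00228) was higher, and the lysyl hydroxylase Plod3 (-1.90 ± 0.26, adjusted p = 0.00181) and the prolyl hydroxylase P3h1 (-1.34 ± 0.31, adjusted p = 0.0155) were lower.

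**Figure D4:**
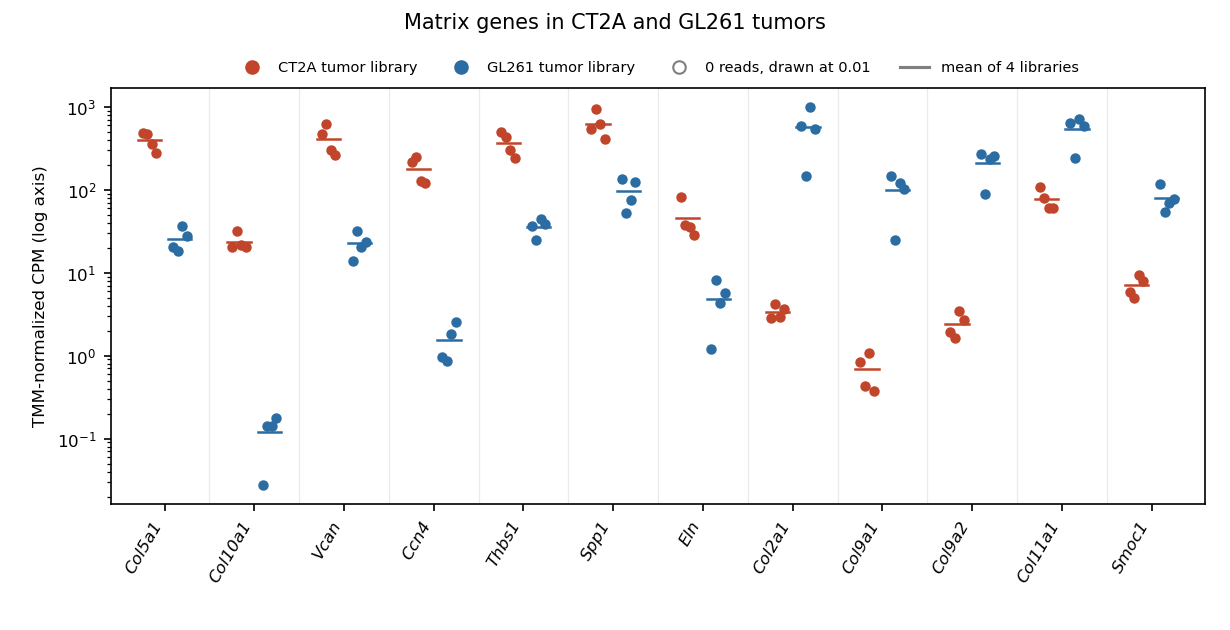
TMM-normalized CPM on a log axis for each tumor, one matrix gene after the other, with a bar at the mean of 4 libraries. Col5a1, Col10a1, Vcan, Ccn4, Thbs1, Spp1 and Eln are higher in every CT2A tumor, and the cartilage collagens Col2a1, Col9a1, Col9a2 and Col11a1 and Smoc1 are higher in every GL261 tumor.

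Growth signals differed by ligand. Inhba, the activin A chain, was at 182, 257, 171 and 154 CPM in CT2A and 3.77, 13, 6.43 and 10.5 CPM in GL261 (4.57 ± 0.38, adjusted p = 0.000311). Pdgfc, a PDGF receptor ligand, was at 88.1, 100.4, 55.8 and 48.1 CPM against 3.3, 6.78, 3.99 and 3.56 CPM (4.11 ± 0.31, adjusted p = 0.000233). Every CT2A tumor was above every GL261 tumor for both genes. Tgfa, a ligand of the EGF receptor, was instead a GL261 gene, at 10.6, 11.9, 24.8 and 23.2 CPM against 92.4, 81.1, 72.1 and 87.8 CPM (-2.17 ± 0.32, adjusted p = 0.00263). Of 38 ligands and binding proteins of the IGF, PDGF, VEGF and EGF group 9 were higher and 4 lower, with the binding proteins Igfbp3 (349 to 738 CPM against 49.5 to 118 CPM, 2.73 ± 0.34, adjusted p = 0.0012) and Igfbp4 (2.29 ± 0.24, adjusted p = 0.000719) and the lymphatic growth factor Vegfd (3.52 ± 0.35, adjusted p = 0.000522) higher in CT2A.

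Of 43 TGF-beta and BMP genes 9 were higher and 3 lower in CT2A (1 lower without CT2A 39 or CT2A 40, 5 without GL261 412). Together that was 27.9%, against 23.4% over all genes. The ligands Tgfb2 (2.35 ± 0.21, adjusted p = 0.000388) and Tgfb3 (2.52 ± 0.26, adjusted p = 0.000665) and the BMP-binding Fstl1 (2.75 ± 0.19, adjusted p = 0.000163) were higher. Among 40 WNT ligands and receptors 7 were higher and 3 lower, 25.0% against 23.4% over all genes. Wnt5a, a ligand of noncanonical signaling, was at 62.9, 72.2, 46 and 40.5 CPM against 5.25, 10.6, 7.58 and 6.59 CPM (2.94 ± 0.25, adjusted p = 0.000305), and the co-receptor Lrp5 was higher without overlap (2.05 ± 0.17, adjusted p = 0.000274). Notch genes had 5 of 24 higher, including the ligand Jag1 (2.36 ± 0.31, adjusted p = 0.00145) and Notch3 (1.85 ± 0.25, adjusted p = 0.00171), and 3 lower, including Dll3 (-2.78 ± 0.35, adjusted p = 0.0013); 1 was lower without CT2A 40, 47 or 48 or GL261 414. In the hedgehog group of 14 the co-receptor Cdon (-2.96 ± 0.31, adjusted p = 0.000668), the ligand Dhh (-2.87 ± 0.42, adjusted p = 0.00241) and the receptor and target Ptch1 (-1.17 ± 0.14, adjusted p = 0.000939) were lower, and the transducer Smo (1.25 ± 0.23, adjusted p = 0.0065) was one of 2 higher members.

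Few mitotic genes were called: 1 of 32 was higher and 2 lower, with 1 called without most single libraries and 6 without GL261 412. With the score of neuron markers in the fit, 8 were higher and 3 lower. Top2a, a marker of dividing cells, was at 442 to 735 CPM in CT2A and 355 to 802 CPM in GL261 (-0.14 ± 0.30, adjusted p = 0.817). Regulators of the G1 phase were lower in 6 of 22 genes and higher in 1, the median log2 fold change being -0.58, and 11 were lower without GL261 412. Cdkn2a (chr4:89274471-89294653), the locus of the inhibitors p16 and p19ARF, was at 8.03, 7.62, 4.57 and 6.02 CPM in CT2A and 235, 38.2, 96.6 and 92.9 CPM in GL261 (-4.12 ± 0.57, adjusted p = 0.00198). Without GL261 405, its highest library, the log2 fold change was -3.46. Its neighbour Cdkn2b (0.951 to 1.96 CPM against 5.05 to 19.2 CPM, -3.29 ± 0.48, adjusted p = 0.00228) and cyclin D3 (Ccnd3, -2.15 ± 0.35, adjusted p = 0.00389) were lower as well.

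Metabolic genes were called at about the rate of all genes. In the tricarboxylic acid cycle 5 of 25 genes were lower and 1 higher, together 24.0% against 23.4% over all genes. Without GL261 412, 8 genes of the cycle were lower. Citrate synthase (Cs), its entry enzyme, was at 168, 151, 175 and 170.2 CPM in CT2A and 422, 335, 399 and 406 CPM in GL261 (-1.18 ± 0.15, adjusted p = 0.00143). Atp5b, the catalytic chain of ATP synthase, was at 572, 559.9, 609 and 665 CPM against 1301, 1110.1, 1208 and 1219 CPM (-0.95 ± 0.16, adjusted p = 0.00423). Both genes varied little within a line, and the lines did not overlap. In respiratory complexes III to V, which include Atp5b, 8 of 35 were lower, 22.9% against 23.4% over all genes. The count depended on single libraries: 1 was lower without CT2A 39, CT2A 40 or GL261 417, 3 without CT2A 47, 5 without CT2A 48, 4 without GL261 414 and 12 without GL261 412. Glycolysis held Gapdh at 1854 to 2252 CPM and 1815 to 3158 CPM (-0.16 ± 0.22, adjusted p = 0.704), and Pgam1 was higher in CT2A (0.96 ± 0.13, adjusted p = 0.00191).

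Enzymes of serine, glycine and one-carbon metabolism, which feed nucleotide synthesis, were lower in CT2A in 6 of 24 genes and higher in none (2 were higher without GL261 405). The share called was 25.0%, against 23.4% over all genes. Aldh1l2, the mitochondrial formyltetrahydrofolate dehydrogenase, was at 11.6, 21.1, 19.6 and 13.5 CPM in CT2A and 383, 96, 186 and 168 CPM in GL261 (-3.63 ± 0.47, adjusted p = 0.00146). GL261 405 was the highest and 412 the lowest GL261 tumor, and none reached down to CT2A. Psph (-1.95 ± 0.39, adjusted p = 0.00885), Mthfd1l (-1.63 ± 0.37, adjusted p = 0.0147) and Psat1 (-0.90 ± 0.17, adjusted p = 0.00601) were lower too, and Phgdh, the first enzyme of serine synthesis, overlapped (0.34 ± 0.34, adjusted p = 0.547). Asparagine synthetase (Asns, -1.32 ± 0.27, adjusted p = 0.0102) and the branched-chain aminotransferase Bcat1 (-1.34 ± 0.27, adjusted p = 0.00913) were lower in CT2A.

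Carriers of these and other nutrients were lower in part. Of 38 glucose, lactate and amino acid carriers 10 were lower in CT2A (8 to 11 with any library left out) and 3 were higher (0 to 3). Slc7a1, an arginine and lysine carrier, was at 56.1, 75.6, 61.6 and 49.9 CPM against 403, 148, 229.8 and 239 CPM (-2.03 ± 0.32, adjusted p = 0.00317), and the glycine carrier Slc6a9 (-1.82 ± 0.31, adjusted p = 0.00445) and the cystine carrier Slc7a11 (-0.99 ± 0.14, adjusted p = 0.00223) were lower as well. Slc47a1, an exporter of organic cations that is also a marker of meninges, was at 2.96, 1.2, 3.11 and 2.73 CPM against 140.0, 39, 116 and 111 CPM (-5.28 ± 0.52, adjusted p = 0.000517). Of 41 ATP-binding cassette transporters 8 were lower and 2 higher, together 24.4% against 23.4% over all genes. The higher ones included the multidrug exporter Abcc1 (1.02 ± 0.19, adjusted p = 0.00641).

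Some enzymes were higher in CT2A. Gsto1, a glutathione transferase, was at 201, 193, 146 and 118 CPM against 45.9, 24.6, 26.4 and 28.9 CPM (2.42 ± 0.27, adjusted p = 0.000874). Of 32 eicosanoid and retinoid enzymes 6 were higher and 2 lower, together 25.0% against 23.4% over all genes. Among the higher ones was prostaglandin E synthase (Ptges), at 18.8, 42.5, 30.3 and 22.8 CPM against 2.42, 5.41, 4.66 and 4.81 CPM (2.79 ± 0.32, adjusted p = 0.000939). Both genes lay apart in the lines. The phospholipase Pla2g4a, which releases arachidonic acid (2.00 ± 0.25, adjusted p = 0.00134), and the retinol dehydrogenase Rdh10 (1.82 ± 0.15, adjusted p = 0.000305) were higher too. ATP citrate lyase (Acly, 0.84 ± 0.14, adjusted p = 0.0042) and farnesyl diphosphate synthase (Fdps, 0.99 ± 0.14, adjusted p = 0.00222) were higher by less, and the iron exporter Slc40a1 was higher (1.67 ± 0.26, adjusted p = 0.00297).

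Few immune cell markers were called. None of 17 macrophage markers was called, and their summed level was 1581 to 2346 CPM in CT2A and 1771 to 2529 CPM in GL261. Itgam (CD11b), the integrin of myeloid cells, was at 63.9, 107, 77.5 and 106 CPM and 64, 102, 84 and 111 CPM (0.04 ± 0.22, adjusted p = 0.933). The 12 microglia markers summed to 1139 to 1546 CPM and 1305 to 1559 CPM, and Tmem119 was the only one called (-0.71 ± 0.16, adjusted p = 0.0161), though not without GL261 414, and 2 were called without CT2A 48 or GL261 405. None of 13 dendritic cell markers and none of 10 NK cell and cytotoxic markers passed, 1 dendritic cell marker was called without GL261 417, and their sums overlapped. Of 21 T cell markers only the kinase Lck was called, lower in CT2A (2.54, 4.36, 4.76 and 5.73 CPM against 20.7, 8.72, 14.1 and 15 CPM, -1.70 ± 0.36, adjusted p = 0.0117). The defining T cell gene Cd3e was at 0.951, 2.29, 2.14 and 2.26 CPM and 2.42, 1.51, 1.57 and 2.42 CPM, and all 21 markers summed to 53.5 to 111 CPM in CT2A and 91.6 to 137 CPM in GL261. A CT2A library held 9 to 24 reads of Cd3e, so small differences were not detectable at this depth.

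Of 10 monocyte markers 3 were called, all higher in CT2A: S100a4, Vcan and Plac8. Of these 3, 1 was also called higher in the sorted tumor cells described at the end. S100a4, which fibroblasts express too, was at 106, 117, 79.3 and 86.5 CPM in CT2A and 11.7, 7.93, 7.02 and 8.75 CPM in GL261 (3.50 ± 0.22, adjusted p = 0.000143). Plac8 had a log2 fold change of 0.99 ± 0.30, adjusted p = 0.0431 and was no longer called with any library other than GL261 417 left out, and the monocyte gene Ccr2 did not pass (0.52 ± 0.23, adjusted p = 0.143). Mmp9, a gelatinase of neutrophils and of tumor cells, was at 24.7, 35.3, 26.3 and 32.1 CPM against 4.89, 1.22, 2.36 and 1.34 CPM (3.62 ± 0.49, adjusted p = 0.00179; 4.26 without GL261 405). It was the only one of 7 tested neutrophil markers called, in a sum of 38.3 to 59.7 CPM in CT2A and 20.8 to 26.1 CPM in GL261, and 5 more were under the minimum. Mmp9 made up most of this sum in every CT2A tumor, and the sum of the other neutrophil markers overlapped between the lines. In tumor cells sorted from such tumors, S100a4 averaged 226 CPM in CT2A and 7.22 CPM in GL261, and Mmp9 9.99 and 0.857 CPM. The B and plasma cell sum was 183 to 343 CPM against 36.5 to 79.2 CPM. Of its 8 tested markers Sdc1 was higher and Pax5 lower. In CT2A Sdc1 made up most of the sum, and the immunoglobulin chain Igkc was at 3.38, 24.2, 4.86 and 11.7 CPM and 13.1, 2.16, 2.36 and 10.3 CPM (0.66 ± 0.79, adjusted p = 0.637).

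Secreted and antigen-presenting immune genes differed in part. Complement was lower in CT2A in 5 of 25 genes and higher in 1, together 24.0% against 23.4% over all genes. C4b was at 135, 193, 382 and 244 CPM against 692, 642, 669.8 and 771 CPM (-1.47 ± 0.32, adjusted p = 0.0124), and Hc (complement C5) was at 0.106, 0.109, 0.194 and 0.188 CPM against 15.3, 4.89, 12.3 and 13.6 CPM (-6.16 ± 0.53, adjusted p = 0.000351). No tumor of one line reached the range of the other, although CT2A 47 and 48 had the higher C4b of their line. C2 was lower as well (-2.45 ± 0.36, adjusted p = 0.00234), and C1qa, made by macrophages and microglia, did not pass (0.09 ± 0.22, adjusted p = 0.844). Of 11 MHC class II genes 2 were lower (4 without GL261 412), with H2-DMb1 at 17.9 to 31.6 CPM against 39 to 86.9 CPM (-1.43 ± 0.33, adjusted p = 0.0153), and Cd74, with the highest TPM of the list (503 and 1029 TPM), did not pass (-1.09 ± 0.37, adjusted p = 0.0646). Of 17 MHC class I heavy chains 2 were lower (1 without GL261 405), and the classical H2-K1 was at 738 to 1501 CPM and 907 to 1792 CPM (-0.10 ± 0.30, adjusted p = 0.879).

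Among 29 chemokines Ccl2, which attracts monocytes, was higher in CT2A (31.3, 23.7, 32.5 and 17.6 CPM against 11.7, 8.46, 8.31 and 12.3 CPM, 1.42 ± 0.26, adjusted p = 0.00593). The interferon-induced Cxcl9 was called as well (1.79 ± 0.43, adjusted p = 0.0186) but not when CT2A 39 or GL261 414 was left out. Galectin 3 (Lgals3), a lectin of macrophages and tumor cells, was lower in CT2A, at 30.1, 45.1, 58.6 and 34.3 CPM against 262, 90.6, 179 and 210.1 CPM (-2.10 ± 0.37, adjusted p = 0.0053), as was Lgals9, a ligand of the T cell receptor TIM-3 (-1.53 ± 0.21, adjusted p = 0.00182). Of 15 interleukins 1 was higher in CT2A and 4 were lower (2 to 3 lower with any library left out), 33.3% against 23.4% over all genes. Interleukin receptors went both ways, 5 higher and 6 lower of 29 (37.9%). Cytokine genes called lower in CT2A included Il11 (-3.19 ± 0.37, adjusted p = 0.000965) and the receptors Osmr (-2.27 ± 0.28, adjusted p = 0.0013) and Il15ra (-1.87 ± 0.30, adjusted p = 0.00333).

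**Figure D5:**
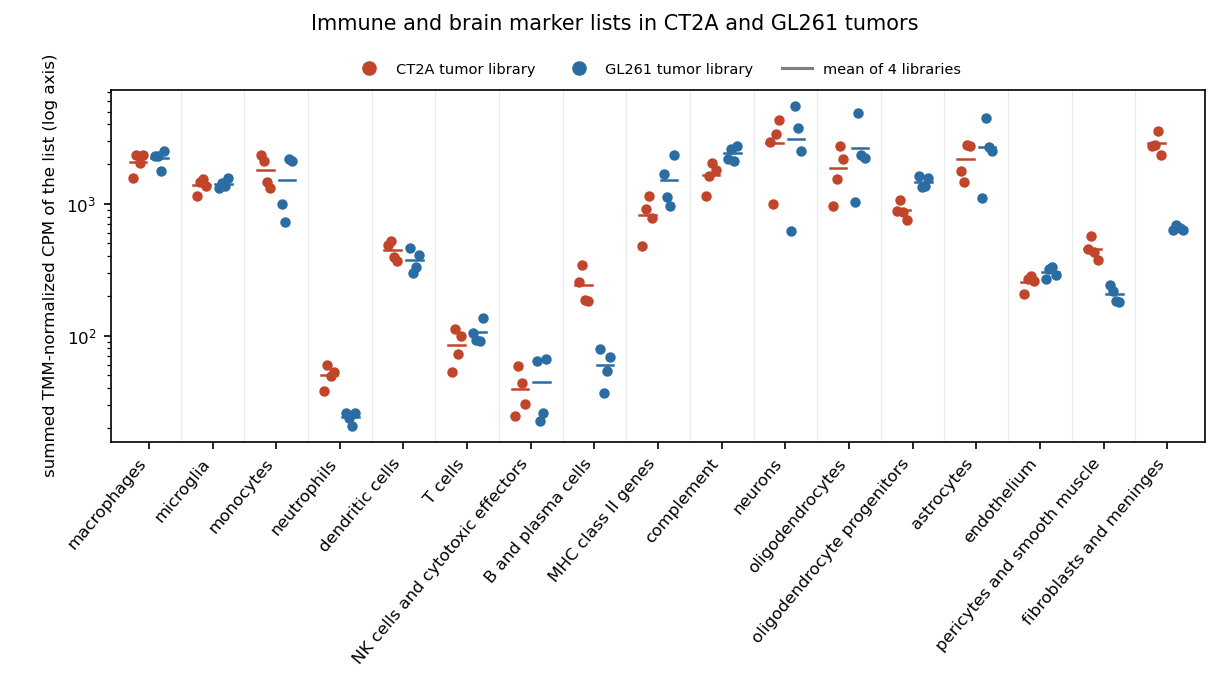
Summed TMM-normalized CPM of each marker list, one point per tumor, on a log axis, with a bar at the mean of 4 libraries. The sums of neutrophil, B and plasma cell, pericyte and fibroblast markers are higher in all 4 CT2A tumors, those of complement and oligodendrocyte progenitors are lower, and the other 11 sums overlap between the lines. In CT2A, Mmp9 makes up most of the neutrophil sum and Sdc1 most of the B and plasma cell sum.

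Markers of neurons and myelin varied widely within GL261. None of 12 neuron markers and none of 10 oligodendrocyte markers was called (1 neuron marker was higher without GL261 412, and 1 oligodendrocyte marker was lower without CT2A 47). Rbfox3 (NeuN), of mature neurons, was at 69.2, 22.7, 70.9 and 111 CPM in CT2A and 9.48, 127, 81.7 and 58 CPM in GL261. Mog, of myelinating oligodendrocytes, was at 10.1, 14.7, 29.9 and 24.6 CPM and 7.2, 54.6, 20.2 and 21.7 CPM. Each gene was lowest in GL261 405 and highest in GL261 412, and CT2A lay between them. Of 10 markers of oligodendrocyte progenitors 9 were called, 6 lower and 3 higher, a median log2 fold change of -1.30. The 6 lower ones included Olig1, Olig2 and Sox10, and the 3 higher ones were Vcan, Pdgfra and Cspg4, which mesenchymal cells express too. In sorted tumor cells all 6 lower ones were also called lower, and 1 of the 3 higher ones was also called higher. Cspg4 was no longer called without CT2A 39 or 40 or without GL261 414 or 417. Pdgfra was at 103, 131, 102 and 86.5 CPM against 27.3, 69.5, 54.5 and 54.2 CPM (1.11 ± 0.24, adjusted p = 0.0132). Fibroblast and meningeal markers summed to 2344 to 3584 CPM in CT2A and 628 to 695 CPM in GL261, with 5 of 10 higher and 2 lower. Of the 5 higher ones, 4 were also called higher in CT2A in sorted tumor cells. Pericyte and smooth muscle markers summed to 373 to 569 CPM against 180 to 241 CPM, with 5 of 11 higher (3 without CT2A 40 or GL261 414) and 1 lower. Of these 5 higher ones, 2 were also called higher in sorted tumor cells and 1 was called lower there. Endothelial markers overlapped (208 to 285 CPM against 267 to 330 CPM), with 1 of 12 called.

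The same lines were also sequenced after tumor cells had been pulled from dissociated tumors with magnetic beads (3 CT2A and 4 GL261 libraries, 7593710 to 10536823 estimated reads). These libraries differ from the bulk ones in subline, kit, read length and sequencer, so the values are set side by side with no test between them. In the sorted cells 50.8% of 13789 genes were called. Of the matrix genes higher in CT2A bulk tumors and tested in sorted cells, 61 of 67 were also called higher there, and of the lower ones 25 of 30 were also lower. For transcription factors these counts were 95 of 108 and 61 of 78, for surface genes 42 of 47 and 38 of 39, for growth signals 32 of 34 and 23 of 23, for metabolism 52 of 72 and 86 of 111, and for immune genes 12 of 17 and 23 of 25. Over all genes they were 1392 of 1731 and 1496 of 1828.

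Gene by gene, the sorted cells held several lineage genes at levels further apart. Sox10 averaged 0.633 CPM in sorted CT2A and 897 CPM in sorted GL261, a log2 fold change of -10.43 against -4.30 in bulk. Erbb3 averaged 0.654 and 526 CPM (-9.60 against -4.54), and Chl1 0.933 and 763 CPM (-9.61 against -3.76). Col2a1 averaged 0.964 and 2419.5 CPM (-11.26 against -7.34). On the CT2A side, Fap averaged 88.8 and 1.36 CPM (6.04 against 4.19) and Pdgfc 130.2 and 2.17 CPM (5.91 against 4.11). Fgfr1 had nearly the same log2 fold change in both (3.17 and 3.12), as did Tead2 (2.31 and 2.33). Other genes lay closer together in sorted cells. Bhlhe40 averaged 157 and 142 CPM in sorted cells (0.16 against 1.26), Ltbp1, a binder of latent TGF-beta, 162 and 157 CPM (0.06 against 2.41), and K-cadherin (Cdh6) 90.7 and 88.1 CPM (0.06 against -1.81). C4b averaged 22.7 CPM in sorted CT2A and 1553 CPM in sorted GL261, and Lgals3 26.6 and 275 CPM.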

How the data were processed

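Per the labels, total RNA of each tumor was extracted with an RNeasy Plus Mini kit and made into libraries with NEBNext Ultra II. The submitters' processing notes list Salmon, STAR 2.7.7a, RSEM 1.3.3, DESeq2 1.30.1 and the mm10 build. The deposited Salmon tables hold, for 116546 transcripts, the estimated counts of reads and the TPM values (transcripts in 1000000) that the authors obtained from Salmon, with TPM normalized for effective length and library. The deposited RSEM tables hold expected counts per gene and served as an alternative.

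Estimated counts were summed over the transcripts of each of 35576 genes, and 180 transcripts without a gene (0.0413% to 0.142% of reads) were left out. Symbols came from a separate list of gene names, which covered 35420 genes, and otherwise from GENCODE M21. Coordinates came from GENCODE M21. Counts were rounded to whole numbers. Genes with a mean TMM-normalized count of at least 10 over the 8 libraries (16434) were fitted with edgeR 4.0.16 (R 4.3.3), quasi-likelihood F-test, line as the only term, Benjamini-Hochberg adjustment over all of them. The 7 sorted libraries were fitted alone in the same way. The floor for a line without reads was 3 reads per library, which covers counting error only. Gene lists, tests and named genes were chosen with earlier results of these data known. Named were the 12 highest and 12 lowest genes described in the text, up to 4 higher and 4 lower members of each list with the smallest p, the 2 members of each list with the highest TPM, and markers that define a list, in part left out for length. The fit was tested on simulated data. Alternatives used DESeq2 1.42.0, limma 3.58.1 on log2(TPM + 1), RSEM counts, thinned reads, an effective length offset, other minimums, a fit of bulk and sorted groups together, a neuron score as covariate, a minimum fold, and 1 library less. The other 8 samples of the series were not used.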

Additional observations from a re-analysis of the deposited data

Results flagged for a closer look

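Of 192 groups of 4 libraries looked at (named genes and marker sums in each line), 11 held a library far from the other 3 by Dixon's test, and chance gives about 1 in 20. Cd3e, the T cell receptor chain, was at 0.951 CPM in CT2A 39 and at 2.14 to 2.29 CPM in the other CT2A tumors. Kit was at 6.64 CPM in CT2A 40 (others 14.9 to 16.5), Col10a1 at 31.6 CPM (20.3 to 21.5), Mcam at 59.8 CPM (37.1 to 39.6) and Twist2 at 15.4 CPM (9.02 to 9.91), so that CT2A 40 held 4 of the 11. Foxl2 was at 0 CPM in CT2A 39 (others 0.564 to 0.68 CPM), and Eln at 82.3 CPM in the same tumor (others 28.5 to 37.5). Nr2f2 was at 16.7 CPM in GL261 412 against 3 to 5.3 CPM in the other GL261 tumors. The summed choroid plexus and ependyma markers were at 434 CPM in CT2A 48 (others 12 to 34.8), of which the choroid plexus gene Ttr made up 406 CPM, and at 51.8 CPM in GL261 412 (others 15.3 to 19.8). The erythroid sum was 76.3 CPM in GL261 405 against 138 to 150 CPM in the other GL261 tumors.

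Of the genes named, elastin and hemicentin were called in opposite directions in whole tumors and in sorted tumor cells. Eln, the core of elastic fibres, had a log2 fold change of 3.33 in bulk (adjusted p = 0.00457 by edgeR) and of -2.48 in sorted cells. Its bulk values were 82.3, 37.5, 35.6 and 28.5 CPM in CT2A and 1.21, 8.12, 4.27 and 5.72 CPM in GL261, and it averaged 1.78 and 10.1 CPM in sorted cells. Hmcn1, a basement membrane protein, was at 4.23, 4.36, 6.02 and 4.7 CPM in CT2A and 18, 10.6, 16.6 and 15.6 CPM in GL261 bulk tumors, a log2 fold change of -1.60, against 2.38 in sorted cells, and its bulk call was lost with the effective length offset (-1.28) and with limma on log2(TPM + 1) (-0.65). The difference between bulk and sorted cells was not tested.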

How the results depend on the processing

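No paired analysis was possible because the sample numbers of the lines are not shared. The 3839 calls (1881 higher, 1958 lower) became 2220 (994 and 1226) with a minimum absolute log2 fold change of 1, by construction, and 6415 (3334 and 3081) with the neuron score as covariate, the cause of which was not tested. With one library left out they ranged from 2474 to 4777 in all, from 1148 to 2236 for higher genes and from 1312 to 2592 for lower genes. Sorted cells gave 5556 to 8922 calls in that way against 7000. DESeq2 gave 2260 higher and 2670 lower genes in bulk, RSEM counts 2342 and 1836, limma on log2(TPM + 1) 2381 and 1815, and no minimum count 1491 and 2160. Higher genes were thus 36.6% of calls when bulk and sorted groups shared a fit, 56.7% with limma and 49.0% as reported. Of 162 named and called genes, 156 were called under every alternative apart from the minimum fold and left-out libraries, 155 with any library left out, and none changed direction. Hmcn1, Plac8, Cxcl9, Tmem119, Hoxd8, Itga4, Cspg4, Ly6e, Gm28661 and Gm28439 were the ones that lost a call. The lower depth of CT2A limits genes of low level, such as Cd3e. The lines differ in number of injected cells, which cannot be told apart from the line. The same holds for any difference in tissue handling, library preparation or sequencing that went with the line. The counts are by gene, so transcript usage was not analysed here.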

Other observations

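Genes that the sorted tumor cells lacked were looked at after their values had been seen. Among the genes called higher in CT2A bulk tumors, 29 had no read in any of the 7 sorted libraries, and among those called lower there were 5. Several of the 29 are known from kidney, liver or fat. Kap, an androgen-regulated protein of kidney, was at 57.6, 69.7, 65.7 and 25.8 CPM in CT2A and 0, 0, 0.112 and 0 CPM in GL261. Umod, the most abundant protein of urine, averaged 1.02 CPM in CT2A and had no read in GL261. Mup22, a major urinary protein made by liver, was at 14.5, 8.5, 13.9 and 9.96 CPM in CT2A and 0.0275, 0, 0.0281 and 0 CPM in GL261. Every CT2A tumor held these transcripts and the GL261 tumors had few reads of them or none. The adipocyte hormone Adipoq averaged 4.09 CPM against 0.0424 CPM and the adipocyte protease Cfd 8.15 CPM against 0.0572 CPM. Fabp4, the fatty acid carrier of fat cells and endothelium, was at 24.8, 24, 29.2 and 22.5 CPM in CT2A and 0.55, 0.264, 0.225 and 0.0292 CPM in GL261, and averaged 0.148 and 0.337 CPM in sorted cells. Fabp4 varied little among the 4 CT2A tumors, and Kap was lowest in CT2A 48. The part of tissue other than tumor in these values was not tested.

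Some matrix genes had much lower levels in sorted cells than in whole tumors. Col1a2, a chain of interstitial collagen, was at 242, 129.5, 675 and 218 CPM in CT2A bulk tumors and 16.5, 39.6, 55.2 and 78.8 CPM in GL261 bulk tumors, with a log2 fold change of 2.82 ± 0.64 (adjusted p = 0.0146), and without CT2A 47 it was 2.11. CT2A 47 was the highest of its line, and every CT2A tumor was above every GL261 tumor. In sorted cells Col1a2 averaged 5.01 CPM in CT2A and 3.2 CPM in GL261.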
